A study of Mus musculus with 7 samples.

Results

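Hmgcs1, Idi1, Sqle, Lss, Cyp51, Srebf2 and Insig1 are genes of cholesterol synthesis and its control. They were picked by name from the gene-level expression table of a mouse tissue survey, and all 7 were found among 50226 gene names, 19122 of which reached 1 FPKM in at least 1 tissue. FPKM is the number of sequenced fragments scaled for the length of the transcript and for the size of the library, so levels of different genes can be set side by side. Of the 7 genes, 5 encode enzymes and the other two encode regulators, and none of them is itself a lipoprotein receptor, so uptake enters only through the regulators.

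RNA-Seq was performed on 7 tissues of lean wild-type (wt) mice of the strain C57BL/6 (C57BL/6N in the methods) at 36 weeks of age on the diet labelled NCD. The tissues were brown adipose tissue (BAT), the visceral (VAT) and subcutaneous (SCAT) white depots, cortex, kidney, liver and skeletal muscle. Total RNA was depleted of rRNA and made into strand-specific libraries. Each tissue has 1 library, so no difference between tissues can be set against replicate error, no test was run, and all comparisons describe these 7 libraries. Whether the tissues came from 1 mouse is not given in the sources used here. The table holds no counts, so depth is unknown and no interval can be given for a level.

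Cholesterol is built from acetyl-CoA by way of mevalonate, isoprenoid units, squalene and lanosterol. The pathway is switched by SREBP2, the protein of Srebf2, which is held in the endoplasmic reticulum by SCAP and the INSIG proteins while sterols are plentiful and moves to the nucleus when they run short, where it raises the synthesis enzymes, lipoprotein uptake and Insig1 itself. Liver supplies cholesterol to the circulation and turns it into bile acids, while brain makes its own behind the blood-brain barrier, and brown fat is known for active lipid synthesis and turnover.

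The tissue labels were checked against marker genes. Summed FPKM of 5 hepatocyte markers was highest in liver (9136), that of 5 kidney markers in kidney (1704), that of 4 neuron markers in cortex (477), that of 4 brown adipocyte markers in BAT (7549) and that of 3 skeletal muscle fibre markers in muscle (9136, with Myh4 missing there). One defining brown fat marker, Dio2, was at only 0.387 FPKM in BAT, where Ucp1 stood at 6552. Adipocyte markers summed to 1071 in VAT, 415 in SCAT and 1419 in BAT. The white adipose libraries also held other tissue: 4 epididymis markers summed to 2645 in VAT against at most 1.99 elsewhere, and SCAT held B and T cell markers at 107 against at most 3.25 elsewhere and pancreatic acinar markers at 92.9 against at most 8.82 elsewhere. In such bulk samples, fewer cells of a type and less RNA per cell cannot be told apart.

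Promoters of the genes were read from RefSeq (GRCm38.p6) because SREBP2 is known to bind sterol regulatory elements beside sites for NF-Y and Sp1. Of the 7 genes, 6 had an entry in the promoter table, in which each sequence runs from 250 bases before the start of the gene to 50 bases after it. Sqle is the gene with no entry. The stretches upstream of the first annotated base are shown for Hmgcs1 (chr13:119690101-119690350, plus strand), Insig1 (chr5:28071162-28071362, plus strand) and Cyp51 (chr5:4104747-4104947, minus strand). These are the gene with the highest level at the loci used and the 2 genes enriched in a single tissue. Capitals mark matches on either strand to the motif of NF-Y (CCAAT), that of Sp1 (GGGCGG), the short form of the sterol regulatory element (TCACNCCAC) and the E-box (CACGTG).
Hmgcs1: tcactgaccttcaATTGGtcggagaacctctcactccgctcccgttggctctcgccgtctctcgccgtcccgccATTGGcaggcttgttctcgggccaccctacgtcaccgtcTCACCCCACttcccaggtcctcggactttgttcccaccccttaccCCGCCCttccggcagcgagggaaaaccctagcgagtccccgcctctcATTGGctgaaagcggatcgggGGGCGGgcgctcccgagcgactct
Insig1: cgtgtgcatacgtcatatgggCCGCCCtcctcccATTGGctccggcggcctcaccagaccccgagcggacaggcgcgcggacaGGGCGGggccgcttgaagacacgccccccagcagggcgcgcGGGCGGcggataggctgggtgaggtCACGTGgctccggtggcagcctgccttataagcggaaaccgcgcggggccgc
Cyp51: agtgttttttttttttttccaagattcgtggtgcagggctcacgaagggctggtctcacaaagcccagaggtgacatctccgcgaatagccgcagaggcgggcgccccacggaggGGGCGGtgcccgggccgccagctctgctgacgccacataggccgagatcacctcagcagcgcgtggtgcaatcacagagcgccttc

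All 6 promoters held CCAAT and all 6 held GGGCGG, against 37.4% and 35.7% of the 32851 promoters in the table. In Cyp51 the CCAAT lies at position -29, downstream of the stretch shown. The shorter sterol regulatory element TCACNCCAC was found in 1 of 6, Hmgcs1, starting at -137 from the RefSeq start, against 1.24% of all promoters. The classical element, 1 base longer and containing one version of the shorter form, was found in 0 of 6 and in 0.0913% of all promoters. The E-box CACGTG occurred in 1 of 6, Insig1, at -101, against 7.15% of all promoters. These matches are letters in a window and do not show binding.

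Hmgcs1 encodes the cytosolic synthase that makes HMG-CoA from acetyl-CoA units, and it lies on chromosome 13 (119690379 to 119708260, plus strand, GRCm38). It was at 87.9 FPKM in BAT, 58.0 in kidney, 21.9 in cortex, 17.0 in VAT, 14.5 in SCAT, 14.3 in liver and 9.29 in muscle. BAT and kidney stood above the other 5 tissues, which lay between 9.29 and 21.9. The level in BAT was 1.52-fold that in kidney and 9.46-fold that in muscle, a log2 range of 3.23 on the scale log2(FPKM + 0.1) used for all differences. Hmgcs1 had the highest level of the 7 genes in every tissue at the loci used. With loci summed, Insig1 was above it in liver (17.9 against 14.3) and in BAT (113 against 87.9).

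Idi1 encodes the isomerase that interconverts the building blocks of isoprenoids. It lies on chromosome 13 as well (8885501 to 8892451, plus strand). Its FPKM was 12.9 in kidney, 11.1 in BAT, 9.02 in cortex, 4.12 in muscle, 3.80 in VAT, 2.09 in SCAT and 1.77 in liver. Kidney, BAT and cortex formed the upper end, with only a 1.16-fold step from BAT to kidney, and liver was the lowest of the 7 tissues. Kidney exceeded liver 7.26-fold (log2 range 2.79).

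Squalene epoxidase, the product of Sqle, adds the first oxygen to squalene and is a known control point of the pathway. The gene lies on chromosome 15 (59315077 to 59331192, plus strand). At the locus with the highest FPKM, Sqle was at 10.5 in kidney, 9.68 in cortex, 4.53 in BAT, 1.60 in VAT, 0.771 in SCAT, 0.471 in liver and 0.113 in muscle. Kidney and cortex differed by 1.09-fold, with cortex the higher after median ratio scaling, and muscle was lowest, giving the widest log2 range of the 7 genes at 5.64. That range depends on the locus. The table holds 3 loci under this name within the same bounds, and by the order of the loci, the one used lies on the minus strand, opposite to the annotation. The locus read as plus strand gave 7.97 in kidney, 7.59 in cortex, 4.02 in BAT, 2.35 in muscle, 2.27 in liver, 1.98 in VAT and 1.35 in SCAT. Kidney and cortex were again the upper pair and BAT came next, but liver and muscle were no longer lowest, and the log2 range narrowed to 2.47.

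Lanosterol synthase, encoded by Lss on chromosome 10 (76531588 to 76557138, plus strand), closes the squalene chain into the sterol rings. Its FPKM was low throughout, at 4.34 FPKM in BAT, 2.88 in liver, 2.55 in cortex, 1.74 in kidney, 1.21 in VAT, 1.14 in muscle and 0.708 in SCAT. BAT was 1.51-fold above liver, the next tissue, and 6.14-fold above SCAT (log2 range 2.46). Lss was the only enzyme among the 5 with liver as the second highest tissue in the deposited values. With libraries scaled by median ratios, liver came just below cortex (-0.10 on the log2 scale). On the opposite strand 4930483K19Rik, which shares the bounds of this locus, was at 3.41 FPKM in cortex, above Lss, and between 0.693 (SCAT) and 1.47 (BAT) in the other 6 tissues, and its part in the Lss values was not tested.

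Cyp51 encodes the cytochrome P450 that removes a methyl group from lanosterol. It lies on chromosome 5 (4081145 to 4104746, minus strand). Cyp51 was at 44.4 FPKM in kidney, 9.54 in cortex, 7.21 in BAT, 4.03 in liver, 3.20 in VAT, 2.08 in SCAT and 1.94 in muscle. Kidney stood apart, 4.65-fold above cortex and 22.9-fold above muscle (log2 range 4.45). It met the rule for enrichment, at least 1 FPKM and 4-fold above every other tissue, which 2.55% of all genes met for kidney. With libraries scaled by median ratios, this step from cortex to kidney came to less than 4-fold. Of the defining markers of the adrenal cortex, a steroid-producing tissue beside the kidney, Cyp11b1 and Cyp21a1 were listed at 0 in the kidney library and Cyp11a1 at 0.0234 FPKM, and the sum of 4 such markers was 1.78 there and between 1.39 and 2.40 elsewhere. The 4 brown adipocyte markers summed to 13.1 in kidney, where Ucp1 was at 10.6 FPKM, and their part in the kidney levels was not tested. Akap9, which shares the bounds of this locus on the plus strand, was at 11.6 in liver and 11.3 in kidney. A second transcript with these bounds on that strand, Gm43031, was highest in kidney like Cyp51, at 1.63 FPKM, followed by 1.21 in cortex, 0.745 in BAT and 0.392 in muscle, and its part in the Cyp51 values was not tested.

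Srebf2, which encodes SREBP2 and lies on chromosome 15 (82147181 to 82205379, plus strand), had the smallest range of the 7 in the deposited values. It was at 4.62 FPKM in cortex, 2.35 in kidney, 1.94 in SCAT, 1.77 in liver, 1.70 in BAT, 1.43 in VAT and 1.16 in muscle. Cortex was 1.97-fold above kidney, and the other 6 tissues lay between 1.16 and 2.35. The log2 range of 1.90 exceeded that of 26.9% of all genes. The range of Lss was the smaller with libraries scaled by median ratios (1.92 against 2.44 for Srebf2), with upper quartile scaling (1.96 against 2.26) and without the SCAT library (1.84 against 1.90). Srebf1, which encodes the lipogenic SREBP1 proteins, was above Srebf2 in every tissue, from 1.08-fold in cortex (4.98 FPKM) to 25.2-fold in BAT (42.8 FPKM).

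Insig1 encodes an endoplasmic reticulum protein that holds back SREBP and is itself a known SREBP target. It lies on chromosome 5 (28071363 to 28078662, plus strand). Its level was 56.7 FPKM in BAT, 8.06 in liver, 5.57 in VAT, 5.45 in cortex, 4.29 in muscle, 3.86 in SCAT and 3.72 in kidney. The 6 tissues other than BAT lay between 3.72 and 8.06, and BAT was 7.03-fold above liver and 15.2-fold above kidney (log2 range 3.89). Enrichment in BAT by the same rule was met by 0.765% of all genes. Insig2, the second INSIG gene, was highest in liver instead, with 226 FPKM there and 7.98 in BAT. In liver Insig2 was 28.1-fold above Insig1, while in BAT Insig1 was 7.11-fold above Insig2.

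**Figure D1:**
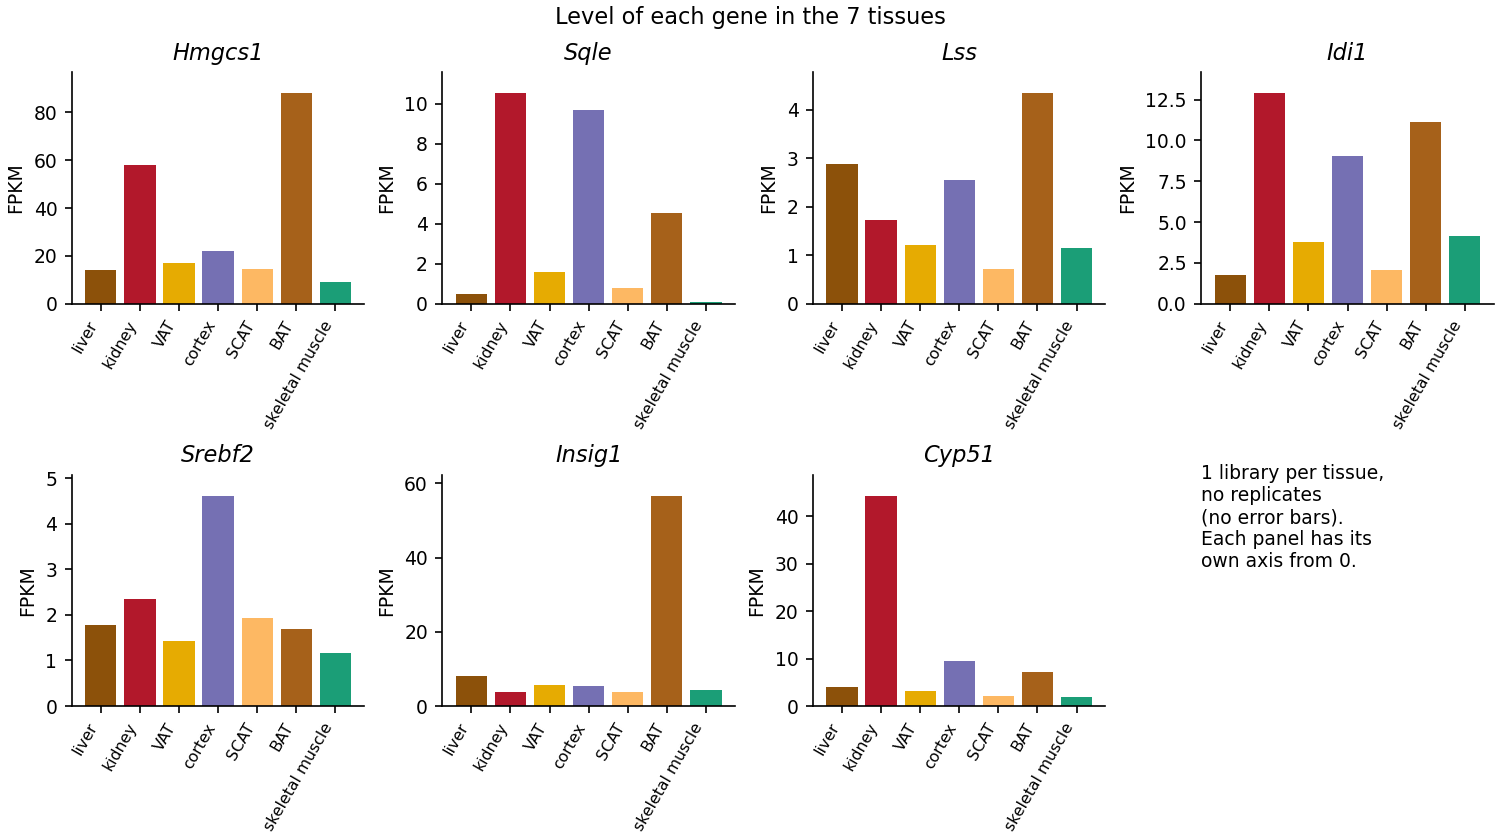
Bars give the FPKM of each of the 7 genes in the 7 tissues, 1 library per tissue, with no error bars because there are no replicates and with a separate axis from 0 in each panel. BAT is the tallest bar for Hmgcs1 (87.9), Lss (4.34) and Insig1 (56.7), kidney for Idi1 (12.9), Sqle (10.5) and Cyp51 (44.4), and cortex for Srebf2 (4.62).

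By tissue, BAT was highest for 3 genes (Hmgcs1, Lss and Insig1), kidney for 3 (Idi1, Sqle and Cyp51) and cortex for 1 (Srebf2), and the remaining 4 tissues were highest for 0. Over all 19087 genes compared, the highest tissue was BAT for 14.1%, kidney for 10.4%, cortex for 20.7%, liver for 16.3%, muscle for 23.3%, SCAT for 9.92% and VAT for 5.28%. Enrichment in 1 tissue was met by 2 of the 7, Insig1 and Cyp51, and by 23% of all genes. None of the 7 was enriched in liver (3.81% of all genes), cortex (8.34%), muscle (3.63%), SCAT (2.68%) or VAT (1.22%). The median log2 range of the 7 was 3.23 and that of all genes 3.09. With Sqle at its plus-strand locus (range 2.47), the median of the 7 would be the range of Idi1, 2.79, which is below 3.09. With each gene centred on its own mean over the tissues, the average of the 7 on the log2 scale was 1.25 in BAT, 1.06 in kidney, 0.74 in cortex, -0.44 in VAT, -0.52 in liver, -0.93 in SCAT and -1.18 in muscle. Sqle at the locus used was the lowest gene in liver (-1.73) and in muscle (-3.15). With its plus-strand locus instead, SCAT would come below muscle in this average, and liver above VAT. In BAT 6 of the 7 lay above their own mean, in kidney and cortex 5 each, in liver 2, and in VAT, SCAT and muscle 0. Of all genes, 51.8% lay above their own mean in BAT, 47.6% in kidney, 42.4% in cortex, 46.8% in liver, 32.8% in VAT, 30.6% in SCAT and 52.5% in muscle. With libraries scaled by median ratios, kidney (0.97) came just above BAT (0.94) and cortex (0.89) in this average, and 2 genes lay above their own mean in VAT, 1 in SCAT and 6 in cortex, beside 53.7%, 48.6% and 47.0% of all genes. In BAT 6 were still above it, beside 36.3% of all genes. The libraries share all 7 tissues and an unknown depth, so the following correlations are descriptions. Over the 21 pairs of genes, Pearson's r on the log2 scale had a median of 0.54, from -0.12 for Srebf2 with Insig1 to 0.84 for Sqle with Cyp51.

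Liver was compared with each other tissue, since the survey served to ask whether lncRNAs that respond to metabolic state are enriched there. Against kidney, 4 of the 7 genes (Hmgcs1, Sqle, Idi1 and Cyp51) were at least 2-fold lower in liver, as were 18.3% of all genes, and Insig1 was at least 2-fold higher, as were 15% of all genes. The differences in log2 were -2.02 for Hmgcs1, -2.79 for Idi1, -3.43 for Cyp51 and 1.09 for Insig1. For Sqle the log2 difference was -4.22 at the locus used and -1.77 at the plus-strand locus. Against BAT, 4 (Hmgcs1, Sqle, Idi1 and Insig1) were lower in liver and 0 higher, where 22.8% and 17.5% of all genes were so placed. Sqle was not among the 4 at its plus-strand locus, with a log2 difference of -0.80. Against cortex, 4 (Sqle, Idi1, Srebf2 and Cyp51) were lower and 0 higher, beside 26.4% and 29.5% of all genes.

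Against VAT, Sqle and Idi1 were lower in liver and Lss was higher, beside 20.9% of all genes lower and 25.7% higher. Lss and Insig1 were higher in liver than in SCAT and 0 genes were lower, beside 28.8% and 19.2%. Sqle, Lss and Cyp51 were higher in liver than in muscle and Idi1 was lower, beside 20.8% and 28.4%. At the plus-strand locus Sqle was not among them: its log2 difference was 0.19 against VAT and -0.05 against muscle. Cyp51 passed the 2-fold limit against muscle narrowly, with a log2 difference of 1.02. Against muscle all but Idi1 were higher in liver at the loci used, with a median log2 difference of 0.89 beside -0.15 for all genes. With libraries scaled by median ratios, several of these placements changed. Lss was then no longer at least 2-fold above VAT (0.71 on the log2 scale), nor Insig1 above SCAT (0.48), nor Idi1 below muscle (-0.88), while Sqle came to lie below SCAT (-1.13) and Insig1 above muscle (1.18). Against kidney, BAT and cortex the genes past the limit were the same under this scaling. With a pseudocount of 1, Lss against SCAT (1.19) was the only difference left among those at least 2-fold higher in liver, and Idi1 against muscle and Sqle and Idi1 against VAT were no longer 2-fold lower.

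The adipose tissues were compared among themselves. In BAT, 6 of the 7 genes were at least 2-fold above VAT and 6 of 7 above SCAT, each time all but Srebf2, where 24% and 30% of all genes were, and 0 of 7 were at least 2-fold lower, where 16.3% and 13.7% were. For Insig1, the 56.7 FPKM in BAT stood 10.2-fold above VAT and 14.7-fold above SCAT. Hmgcs1 was 5.18-fold and 6.04-fold higher in BAT, Lss 3.59-fold and 6.14-fold, Idi1 2.93-fold and 5.33-fold, Sqle 2.83-fold and 5.87-fold, and Cyp51 2.26-fold and 3.47-fold. At the plus-strand locus, Sqle with 4.02 FPKM in BAT and 1.98 in VAT fell just short of the 2-fold limit on the log2 scale. Srebf2 itself was 1.18-fold higher in BAT than in VAT and 1.14-fold lower in BAT than in SCAT. The direction against VAT depended on scaling. The median log2 difference of the 7 was 1.53 against VAT and 2.41 against SCAT, beside 0.25 and 0.30 for all genes.

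On the log2(FPKM + 0.1) scale, the 2 white depots differed by less than 2-fold for all 7 genes. Of the 7, 6 were lower in SCAT than in VAT, with a median log2 difference of -0.60 beside -0.15 for all genes, and Srebf2 was 1.35-fold higher in SCAT. Sqle was nearest the limit, with 0.771 FPKM in SCAT and 1.60 in VAT, and with a pseudocount of 0.01 it passed the limit. In SCAT against VAT, 9.14% of all genes were at least 2-fold higher and 15.8% at least 2-fold lower.

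Scaling of the libraries bears on these comparisons. With libraries scaled by median ratios, the median of all genes moved from 0.25 to -0.34 for BAT against VAT, and 3 of 7 genes (Hmgcs1, Lss and Insig1) were at least 2-fold higher in BAT, beside 11.0% of all genes. For BAT against SCAT 6 of 7 were still so, beside 15.3%, and the log2 difference of Cyp51 was then 1.01. Srebf2 was lower in BAT than in both white depots under this scaling, with log2 differences of -0.42 against VAT and -0.91 against SCAT. The foreign marker sums given above (epididymis in VAT, B and T cells and acinar cells in SCAT) and a muscle fibre sum of 286 in BAT go with these libraries, and their part in the differences was not tested. In the muscle library itself the 5 enzymes were at or below 9.29 FPKM.

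**Figure D2:**
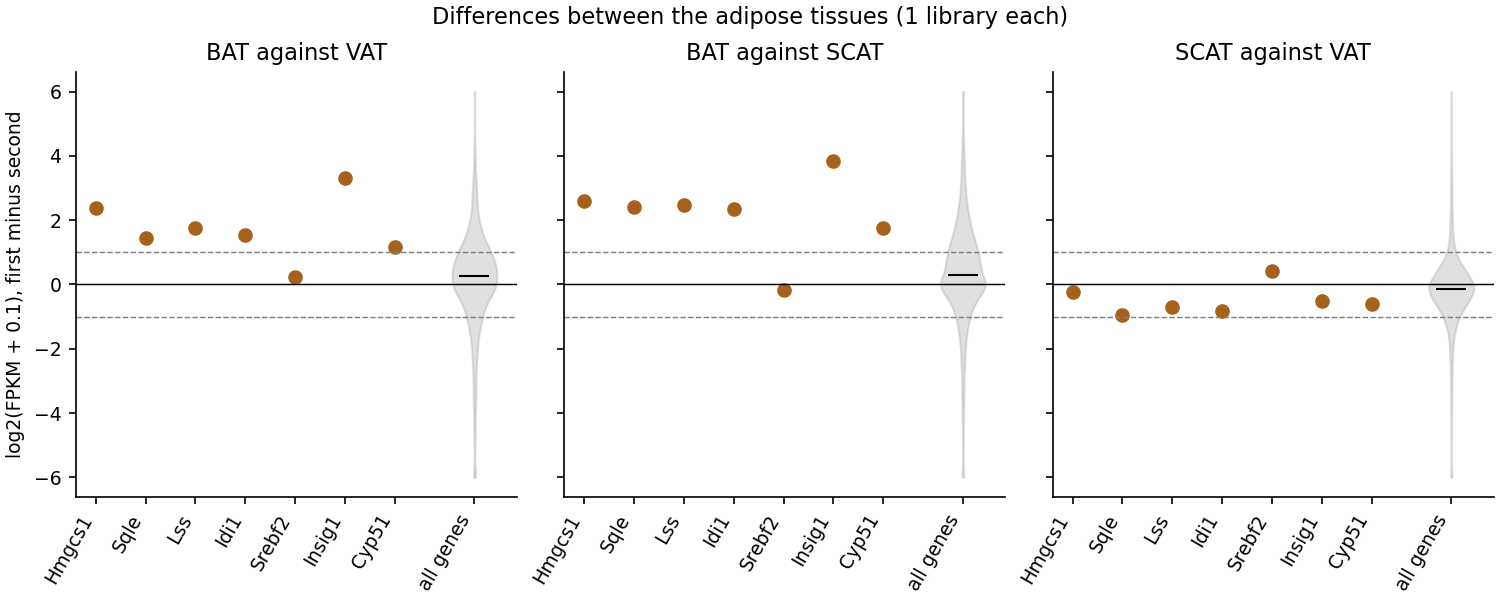
Points are log2 differences of FPKM + 0.1 between pairs of adipose tissues for each gene, with dashed lines at 2-fold; the grey shape is the distribution of all genes of at least 1 FPKM in any tissue, with differences beyond the shape's ends drawn at its ends, and the black bar its median. Of the 7 points, 6 lie above the upper dashed line in both comparisons with BAT, and none passes either line for SCAT against VAT.

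The other enzymes of the pathway were read from a list, of which 13 were measured under their name and Mvd was not analysed here. Of the 13, 5 were highest in BAT, 4 in liver, 3 in cortex and 1 in kidney, beside 14.1%, 16.3%, 20.7% and 10.4% of all genes. The rule for enrichment was met by 0 of the 13 and by 23% of all genes. Fdps was nearly level in BAT (34.5 FPKM) and cortex (34.4), and with libraries scaled by median ratios Fdps and Mvk were highest in cortex, which made 5 in cortex and 3 in BAT. The locus used for Fdps is also listed under Gm43738 and Rusc1. That of Tm7sf2, among the 4 highest in liver, is also listed under Gm28374, Vps51 and Zfpl1. Their levels cannot be assigned to Fdps and Tm7sf2 alone. At least 2-fold above VAT in BAT were 8 of 13, and above SCAT 10 of 13, beside 24% and 30% of all genes, with 0 lower in either, beside 16.3% and 13.7%. The 8 above VAT were all above SCAT as well. Among them, Fdft1, the squalene synthase, was at 178 FPKM in BAT, 78.7 in VAT and 46.0 in SCAT. Acat2, a thiolase at the entry to the pathway, was at 13.3, 4.85 and 1.22. Scaling by median ratios left 1 of 13 above VAT and 6 of 13 above SCAT, beside 11.0% and 15.3% of all genes. The 1 left above VAT was Dhcr7, and Fdft1 (0.49 on the log2 scale) and Acat2 (0.75) were not.

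Against kidney, 3 of the 13 were at least 2-fold higher in liver and 2 lower, beside 15% and 18.3% of all genes. Their median log2 difference was 0.63, where that of the 7 genes was -2.02. With libraries scaled by median ratios 3 were higher and 3 lower. Against BAT, 4 of the 13 were at least 2-fold higher in liver and 7 lower, beside 17.5% and 22.8% of all genes. Against VAT, 5 were higher and 0 lower, beside 25.7% and 20.9%, and with libraries scaled by median ratios 4 were higher and 2 lower, beside 16.0% and 27.7%. Ebp, a sterol isomerase, was at 51.7 FPKM in liver and 14.5 in kidney, the next tissue. Sc5d, a sterol desaturase, was at 80.6 in liver and 23.4 in BAT. Cyp51, the first step after lanosterol, was 1.79-fold lower in liver than in BAT. Nsdhl, which acts soon after Cyp51, was like Cyp51 highest in kidney, at 4.32 FPKM, but with BAT close at 4.21.

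**Figure D3:**
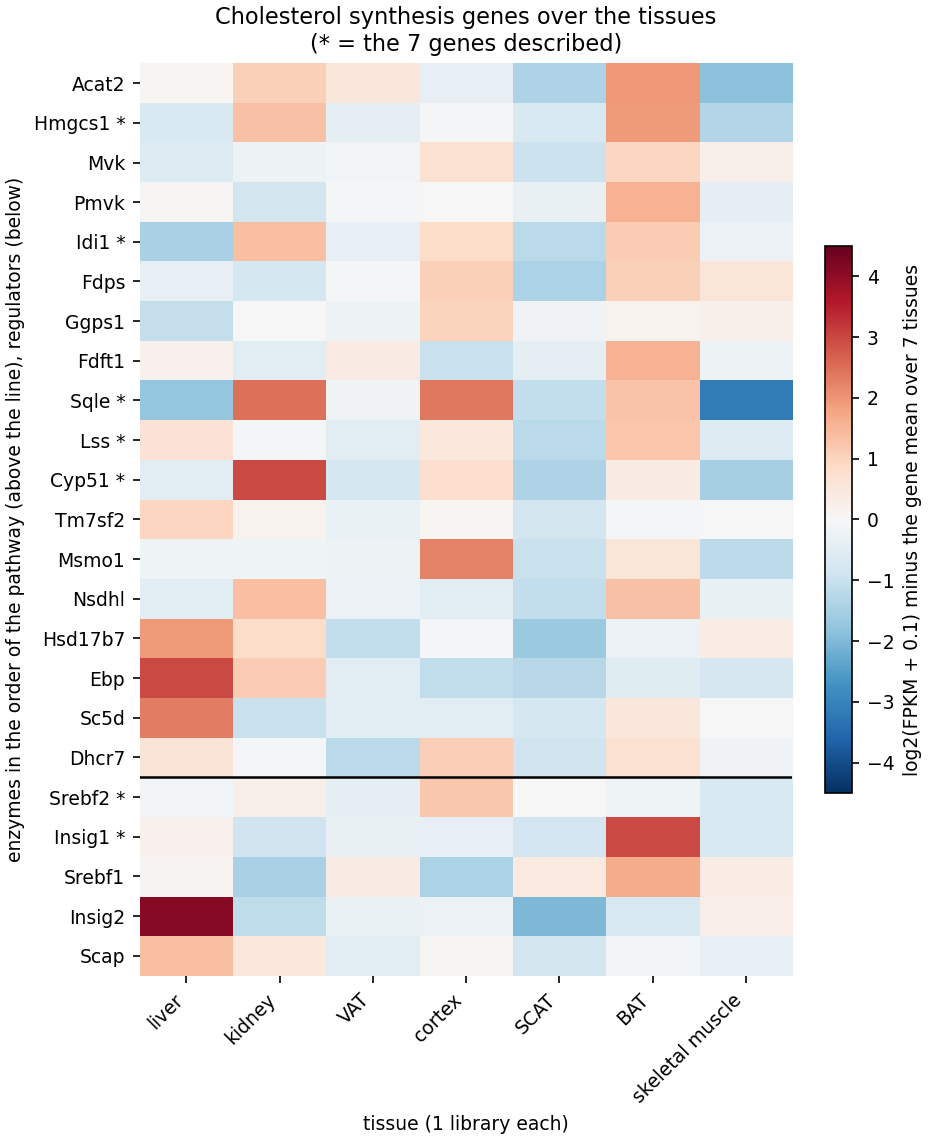
Colours give log2(FPKM + 0.1) minus the mean of each gene over the 7 tissues, for 18 enzymes in pathway order above the line and 5 regulators below it; asterisks mark the 7 genes. The rows from Acat2 down to Lss are red in BAT, Ggps1 only faintly. Further down, Cyp51, Msmo1, Nsdhl, Sc5d and Dhcr7 are also above their own mean in BAT. Hsd17b7, Ebp and Sc5d are red in liver, as are Insig2 and Scap among the regulators.

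Among 5 further SREBP regulators, Scap, the escort of SREBP, was highest in liver (20.7 FPKM) and 2.80-fold lower in BAT (7.37 FPKM). Mbtps1, a protease that cleaves SREBP, was at 15.0 in BAT and 11.3 in liver. Mbtps2, the second protease, was at 5.66 in muscle and 2.10 in liver, at a locus also listed under Yy2.

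Other transcripts share the bounds of several of these loci, and the strand setting used in counting is not given in the sources used here. The loci of each chromosome are listed in 2 ascending series, which were read as plus and minus strand. So read, the strand was the annotated one for 75.3% of 61921 named loci with a known strand. A second Insig1 locus on the minus strand gave 56.0 FPKM in BAT, 9.86 in liver, 6.48 in cortex, 6.44 in VAT, 6.00 in SCAT, 4.13 in muscle and 4.04 in kidney, with BAT again far above the other 6 tissues. Nim1k, a kinase gene, shares its bounds with Hmgcs1 on the minus strand. Its FPKM was 22.7 in BAT, 15.3 in kidney and between 2.51 (muscle) and 6.13 (SCAT) in the other 5 tissues, so that Hmgcs1 exceeded it 2.37-fold to 4.38-fold in all 7 tissues. Washc5, on the minus strand within the bounds of Sqle, was between 5.73 (SCAT) and 12.4 FPKM (muscle), and Shisa8, opposite Srebf2, between 0.353 (muscle) and 1.11 (cortex). Which strand the reads of such pairs came from was not tested.

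**Figure D4:**
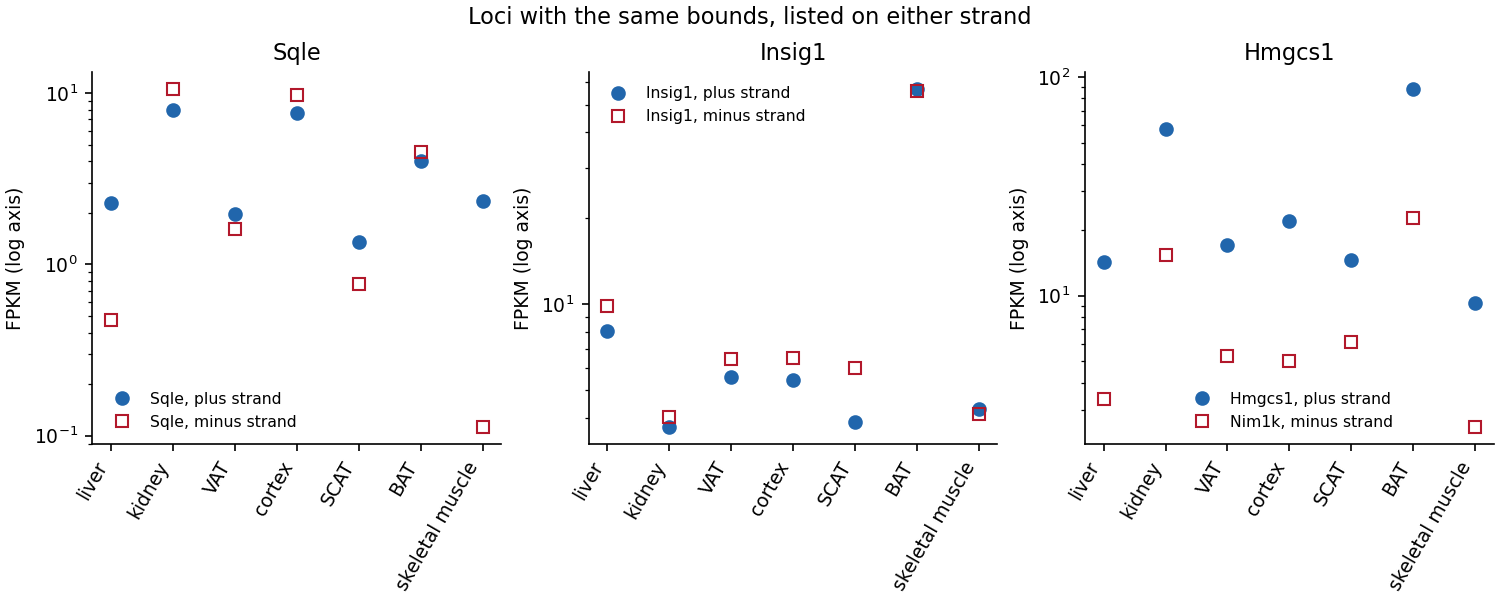
FPKM on a log axis in each tissue for pairs of loci with the same bounds, filled circles for the plus strand and open squares for the minus strand. The 2 Insig1 loci nearly coincide in BAT (56.7 and 56.0), Nim1k runs below Hmgcs1 in all 7 tissues, and the 2 Sqle loci part in liver (2.27 and 0.471) and muscle (2.35 and 0.113).

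Genes with the profile most like the mean of the 7 were sought over the 7 tissues among 19080 genes, a search in which some high correlations arise with so few points. The 10 names nearest were 5430400D12Rik and Arpin (1 shared locus, r = 0.99), Mettl9 (0.98), N6amt1 (0.97), Gm28424 (0.96), Catsperz and Kcnk4 (1 shared locus, 0.96), 2810025M15Rik (0.96), Zfp664 (0.95) and Cnnm2 (0.94). No gene of the pathway lists was among them. The median r to this profile was 0.41 for the 13 other enzymes, 0.50 for 6 fatty acid synthesis genes and 0.06 for all genes. Acat2 (0.81) and Nsdhl (0.79) were the nearest of the 13, and Sc5d (-0.14) was the farthest, while Acly of the fatty acid list was at 0.79. For single genes, the 2 nearest were Unc45a and Trmt10a for Hmgcs1, Ifit1bl2 and Trim44 for Sqle, Abhd6 and Cbr1 for Lss, Ttc8 and Rad21 for Idi1, AC159193.5 and Stmn1 for Srebf2, Crls1 and Gm6205 for Insig1, and Tmtc4 and Pip4k2c for Cyp51, with r between 0.96 and 0.99.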

How the data were processed

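Per the methods, the authors removed adapters with flexbar and rRNA reads with Bowtie2 2.2.9, aligned reads to GRCm38 with STAR 2.6.0c, assembled transcripts with Cufflinks 2.2.1 and compared tissues with Cuffdiff (versions also in the submitters' processing notes). The values deposited are Cuffdiff's FPKM per gene locus, for 94339 loci and 7 libraries. The table also holds the fold changes, test statistics, p-values and q-values of their comparisons, which were not used. Fragment counts are not in the table, so the depth per library is unknown, and Cuffdiff's scaling between libraries is not given in the sources used here.

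Names were split at commas. A name listed at several loci was represented by the one with the largest FPKM, 151 loci with the status FAIL were dropped, and zeros with the status LOWDATA were treated as missing. Differences are of log2(FPKM + 0.1), which understates those of low values. Genes of at least 1 FPKM in any tissue formed the background, at least 2-fold counted as higher or lower, and at least 4-fold above every other tissue as enriched. Positions and strands come from GENCODE and promoters from RefSeq. Python 3.11.15, pandas 2.3.3 and NumPy 2.4.6 were used, and the counting and the profile search were tested on simulated data. With 1 library per tissue no test was possible.

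Named are the 7 genes, pathway genes at the extremes or past the fold limits, the 10 genes nearest to the mean profile and the 2 nearest to each gene, and markers. The genes and lists were chosen with earlier results of these data known. Alternatives covered the pseudocount, scaling, loci, filters, folds and libraries. The loci on the annotated strand, the protein-coding background and LOWDATA zeros as 0 for the fatty acid list were added after seeing the data. An enzyme of the pathway list is not reported here and entered no list count.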

Additional observations from a re-analysis of the deposited data

How the results depend on the processing

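No paired analysis was possible because the libraries carry no replicates, and none of the values below carries a test. Over 18 alternatives, 2 of them chosen after seeing the data, 191 of 220 values of counts, log2 ranges and rankings stayed within 1.5 times the value reported (for ranges, 1.5 times the fold) and 29 did not, as did not 14 of 65 percentages of all genes. The cause was not tested, except where fewer genes or a stricter limit make the difference by construction. Some of the 220 values could not change, such as the ranges of genes with a single locus when loci were summed. The 191 is therefore no measure of stability. Of the 42 pairs of a gene and a tissue, 7 were at least 2-fold higher in liver; with a pseudocount of 1 this was 1, at a limit of 1.5-fold 11, at 4-fold 0, and 4 with the 5 genes that reach 5 FPKM. For the adipose comparisons, 12 of 21 pairs became 7 at 4-fold. Lower pairs numbered 0, but 4 at 1.5-fold and 1 with a pseudocount of 0.01. Genes higher in BAT than in VAT numbered 6, but 3 under median ratio scaling, 3 under upper quartile scaling and 2 at 4-fold. Genes lower in liver than in cortex numbered 4, but 2 at 4-fold. Genes enriched in 1 tissue numbered 2, but 1 under median ratio scaling and 1 without the kidney library. Without that library 4 of 7 genes kept their highest tissue. The log2 range of Sqle was 3.37 with a pseudocount of 1, 6.43 with 0.01, 3.05 with loci summed and 2.47 with annotated-strand loci. That of Lss was 1.65 with a pseudocount of 1 and 1.84 without SCAT, and that of Cyp51 2.24 without kidney. Of the 10 nearest genes, 5 were shared with Spearman's rho, 5 with a minimum of 5 FPKM, 5 without SCAT, 6 without VAT, 6 without kidney, 6 under median ratio scaling, 6 under upper quartile scaling and 6 with annotated-strand loci. Treating FAIL loci or LOWDATA zeros otherwise moved none of these values past 1.5 times.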

Other observations

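Liver was the highest tissue for 7 of 13 genes of cholesterol efflux, esterification and conversion and for 4 of 9 genes of uptake and transport, against 16.3% of all genes. Among the 13, Cyp8b1 was below 1 FPKM in every tissue (0.732 in muscle, 0.544 in liver), so it lies outside the genes that form this share. Of the 13, 5 were enriched in 1 tissue: Abcg5, Abcg8, Soat2 and Cyp7a1 in liver, where 3.81% of all genes were enriched, and Cyp46a1 in cortex, where 8.34% were. Cyp7a1, the rate-limiting enzyme of bile acid synthesis, was at 10.1 FPKM in liver, 0.273 in VAT and at or below 0.00336 in the other 5 tissues. The locus used for Cyp7a1 is read as the strand opposite to its annotation, and the annotated-strand locus gave 5.06 FPKM in liver and 0.128 in VAT. Abcg5 and Abcg8, which together export sterols into bile, were at 35.4 and 22.2 FPKM in liver, with VAT next at 0.380 and 0.198. Hepatocyte markers also had VAT or kidney as the next tissue, with Ahsg at 11.1 FPKM in VAT against 1897 in liver, and their part in the VAT values was not tested. Cyp46a1, which turns cholesterol into a form that can leave the brain, was at 28.1 FPKM in cortex and 6.13 in liver, again at a locus read as the opposite strand, and its annotated-strand locus gave 19.2 and 3.68. Of the 9 uptake and transport genes, 2 were enriched in 1 tissue, as were 23% of all genes. They were Lrp8 in cortex (6.70 FPKM) and Lrp1 in liver (74.3 FPKM). With libraries scaled by median ratios Lrp1 was less than 4-fold above VAT (1.64 on the log2 scale) and SCAT (1.86), and no longer met the rule. Vldlr, a receptor for triglyceride-rich lipoproteins, was at 119 FPKM in muscle and 65.7 in BAT but 1.65 in liver.

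Fatty acid synthesis genes differed more between brown and white fat than the 7 cholesterol genes, whose median log2 differences were 1.53 against VAT and 2.41 against SCAT. All 6 with values in the 3 depots were at least 2-fold higher in BAT than in VAT and than in SCAT, beside 24% and 30% of all genes, with median log2 differences of 3.38 and 5.24. Of these, Elovl6 and Thrsp were likewise read from the strand opposite to their annotation. Fasn, the fatty acid synthase, was at 427 FPKM in BAT, 16.1 in VAT and 4.07 in SCAT, and Acaca, which makes its substrate, at 229, 20.5 and 16.0. Scd1 had no value in the 3 depots because of its LOWDATA status, and with such zeros taken as 0 the count was 6 of 7 in both comparisons, with medians of 3.29 and 3.82. Srebf1 was 2.34-fold higher in BAT than in SCAT, the next tissue, whereas Srebf2 was 1.14-fold lower in BAT than in SCAT. With libraries scaled by median ratios, the log2 difference between BAT and SCAT was 0.46 for Srebf1, less than 2-fold, and -0.91 for Srebf2.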
